A study of Rattus norvegicus with 10 samples.

Results

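The features described here are the short single-exon rows of a count table from rat gastric mucosa. They lie on nuclear chromosomes, are at most 350 nt long and list 1 distinct exon. They lie outside the stretch of chromosome 17 from 41700000 to 44900000, and they have 10 or more counts in at least 2 of the 10 libraries. Of 32623 features in the table, 6085 met the positional part of this rule and 656 also met the count minimum. Another 35 short single-exon features lay on the chromosome 17 stretch and were left out. Among the 6085, 3253 had no count in any library. The count minimum divided features of similar level: 75 of the 656 had a second-highest count of 10 to 12, and 134 features just below it had 7 to 9. At the length limit, 15 features of the set lay within 10 nt below it and had a median level of 3.93 CPM (the count scaled by the size of its library), and the 15 that lay within 10 nt above it had a median of 1.16 CPM.

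The libraries were made from stomach lining (gastric mucosa) of Sprague Dawley rats, with epithelial cells given as the cell type. There were 5 groups of 2 libraries. The control group carried no treatment label. The other groups received oral indomethacin (48 mg/kg), diclofenac (75 mg/kg) or aspirin (400 mg/kg), or intraperitoneal honokiol (40 mg/kg) and then indomethacin 30 min later. Mucosa was collected 4 h after the oral drug, while the honokiol libraries carry a time label of 0.5 h. Whether both libraries of a group stem from different animals is not labelled, nor are age and sex. Indomethacin, diclofenac and aspirin are nonsteroidal anti-inflammatory drugs. They block cyclooxygenase and so lower the prostaglandins that keep up mucus, bicarbonate and blood flow in the stomach wall. Honokiol is a biphenolic compound of magnolia bark. Each drug was given at 1 dose and the doses differ, so values of different drugs are set side by side and were not tested against each other.

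Annotations hold many short single-exon features. Small nuclear RNAs act in splicing, small nucleolar RNAs guide the modification of other RNAs, and other short transcripts act in RNA processing and protein targeting. Many small nucleolar RNAs are cut out of the introns of host genes, and many small RNA genes have near-identical copies across the genome. Libraries made from total RNA after removal of ribosomal RNA can carry such transcripts, since no poly(A) tail is needed. Single-exon gene segments and single-exon coding genes can be as short. None of the feature identifiers could be paired with a name (0 of 32623 matched the reference table), so no feature is called by a gene name or an RNA class, and each is given by position, length and level. No genome build is named in the headers or labels used here. The tissue label could not be checked against marker genes for the same reason.

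The lengths fell into a broad group below 200 nt and another around 300 nt. There were 80 features of at most 80 nt, 143 of 81 to 120 nt, 223 of over 120 and up to 200 nt and 210 over 200 nt. Of those over 200 nt, 146 (69.5%) had a length that was a multiple of 3, against 80 of 223 (35.9%) at over 120 and up to 200 nt, 34 of 143 (23.8%) at 81 to 120 nt and 32 of 80 (40.0%) at most 80 nt. Before the count minimum the share over 200 nt was 500 of 881 (56.8%). The table carries no biotype, so whether the features are noncoding could not be checked, and they are called short features here.

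**Figure D1:**
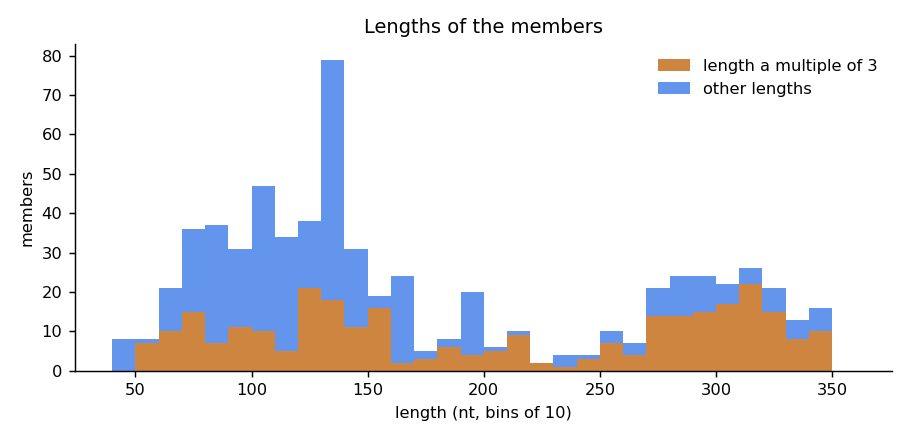
Number of features of the set (vertical axis) by length in nt (horizontal axis, bins of 10), with lengths that are a multiple of 3 in brown and other lengths in blue. Brown fills most of the bars above 200 nt (146 of 210 features) and the smaller part of the bars below.

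By position, 367 features met no other feature, 260 lay in an intron of another feature and 29 met an exon of one. The levels were mostly low. The median of the mean level was 0.913 CPM, scaled by the trimmed mean of M-values (TMM). A mean under 1 CPM was found for 349 features, 1 to 100 CPM for 249, 100 to 10000 CPM for 51 and at least 10000 CPM for 7. Library totals ran from 23892226 to 44977459 counts. Differences within a group were larger than those of other features in every group. The median absolute log2 difference between the libraries of a group was 0.23 to 0.35 for the short features and 0.20 to 0.30 for the others. The gap was widest with indomethacin (0.32 against 0.21) and narrowest in control (0.30 against 0.29). An offset was added to the CPM for these values, which shrinks differences at low levels. Reads of 7 features on chromosome Y were found in control 1 (3582 counts), indomethacin 1 (4438) and both honokiol plus indomethacin libraries (3393 and 2733), and the other libraries had at most 47. Control 2 had 1 such count and indomethacin 2 had 2, so the 2 libraries of each of these groups do not stem from 1 animal. The groups therefore differ in this respect, and sex, which is not labelled, may be unbalanced between aspirin or diclofenac and control. The total counts of calls with aspirin and diclofenac are also given from a fit with a term for Y reads.

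The short features took 20.17% to 25.87% of all counts in a library, most of them on a few abundant ones. Their share of a library's counts was 23.0% ± 4.03 (SD, n = 2) for the controls and 22.4% ± 1.16 for indomethacin. It was 21.9% ± 1.48 for honokiol plus indomethacin, 20.7% ± 0.0212 for aspirin and 23.4% ± 1.56 for diclofenac. The controls alone, at 25.87% and 20.17%, spanned the values of all other libraries. Of nuclear counts alone the order differed: the share was 39.86% and 31.6% in the controls, 27.17% and 26.85% with aspirin and 28.31% and 31.01% with diclofenac, so that these 4 libraries lay below both controls. It was 34.32% and 27.54% with indomethacin and 30.38% and 35.46% with honokiol plus indomethacin. The 13 most abundant features took 14.62% to 24.02%, and the top 3 took 6.291% to 10.73%. With 2 libraries against 2, no exact test of a share can reach 0.05, so shares are given without a test.

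The share of the shortest features differed more between libraries, through 14 features of 49 and 57 nt. Features of at most 80 nt together took 0.157% ± 0.0927 (SD, n = 2) of the control counts. Their share was 0.643% ± 0.455 for indomethacin, 0.26% ± 0.246 for honokiol plus indomethacin, 3.13% ± 1.33 for aspirin and 1.84% ± 0.00424 for diclofenac. Both aspirin and both diclofenac libraries were above all 6 others. The 14 features of 49 and 57 nt had 970027 counts in aspirin 1, and the other 66 of the class had 1647. In every library the other 66 took between 0.00465% and 0.00717% of the counts, a split made after the values were seen. Features over 200 nt took 22.2% ± 4.02 in control and 16.6% ± 1.55 with aspirin, and these groups did not overlap. Features of at most 200 nt together took 0.86% ± 0.0107 of counts in control, 4.16% ± 1.52 with aspirin and 2.92% ± 0.17 with diclofenac. In bulk tissue a change in the number of cells of a type and a change in RNA per cell cannot be told apart.

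**Figure D2:**
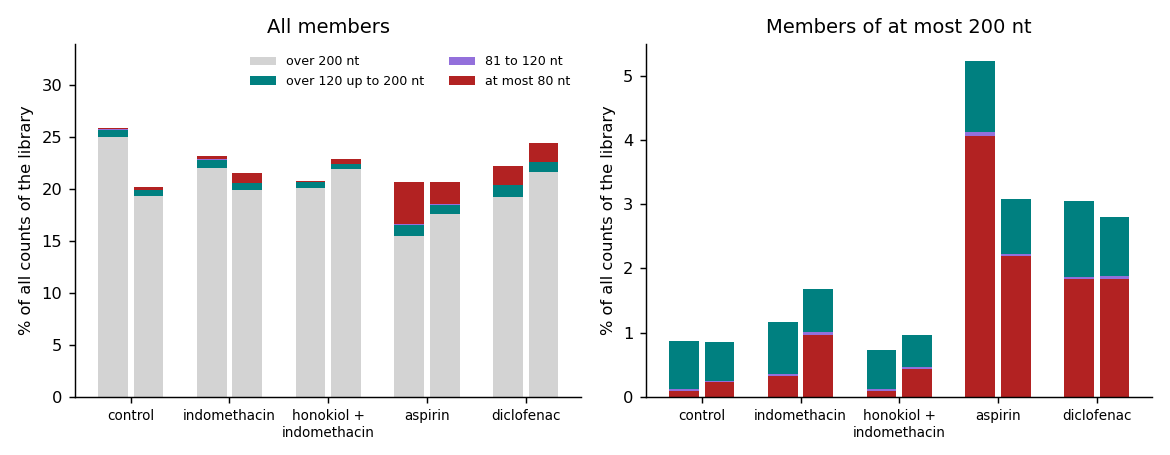
Share of each library's counts (vertical axes, percent) on the short features, stacked by length class, with 1 bar per library (replicate 1 left, replicate 2 right in each group). The left panel shows all features of the set; the right panel leaves out those over 200 nt and shows the red segment of at most 80 nt highest in the aspirin and diclofenac libraries.

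Of the 12 most abundant features per kilobase, 9 were 281 to 331 nt long, and the other 3 were a pair of 57 nt features on chromosome 6 and a 49 nt feature on chromosome 14, described further on. The first was chr7:71472483-71472765 (283 nt), with 48100 and 32790 CPM in control, 39620 and 26100 with indomethacin, 27910 and 38240 with honokiol plus indomethacin, 20350 and 23030 with aspirin and 31450 and 31600 with diclofenac. Both aspirin libraries were below both controls, and the difference of -0.90 ± 0.38 (log2 fold change ± SE) did not pass the threshold (edgeR quasi-likelihood test, Benjamini-Hochberg adjusted p = 0.11). The pair chr6:91456908-91457207 and chr6:91680229-91680528 (both 300 nt) had means of 29330 and 27140 CPM over the 10 libraries. Others were chrX:35488136-35488416 (281 nt, 25850 CPM), chr8:63239745-63240041 (297 nt, 18000 CPM) and chr7:71615114-71615403 (290 nt, 15950 CPM). The 57 nt pair ranked next per kilobase, ahead of chr8:85480292-85480622 (331 nt, 11180 CPM), chrX:23467547-23467864 (318 nt, 9144 CPM) and chr19:22476964-22477262 (299 nt, 8023 CPM).

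Of these 9 long features, 1 was called in a comparison. The 290 nt feature on chromosome 7 had 26580 and 18620 CPM in control and 8287 and 10320 CPM with aspirin. It fell by 1.28 ± 0.39 on the log2 scale (edgeR, adjusted p = 0.044), and the call held under 6 of 18 alternative settings. The most abundant features of the other length classes were chr10:89562040-89562230 (191 nt, mean 930.3 CPM) and chr2:62556301-62556406 (106 nt). The 106 nt feature stayed between 69.5 and 92.3 CPM in all 10 libraries and was called in no comparison.

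Of the 29 features that met an exon, 23 met a single-exon feature on the same strand, of 60 to 108 nt. In 22 of these cases that partner had 0 counts in all 10 libraries. Among the 12 most abundant features per kilobase, 7 had such a partner. Chr7:71472483-71472765 holds a 60 nt feature at 71472564 to 71472623, which covers 21.2% of its length and had no counts. How reads that meet 2 features were counted is not stated in the labels or headers, so the levels of these features may leave out reads from the shared stretch.

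Counts of the same size recurred at different positions. Among 266 features with a mean count of at least 50, 29 fell into 12 groups whose counts agreed within 10% in every one of the 10 libraries. In 8 of the 12 groups all features had 1 length, and 10 of the groups lay on more than 1 chromosome. The largest held 4 features. The features of a group may share reads, so their values are uncertain one by one, and 6 of the features called with aspirin are in these groups.

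In the tests below, 632 of the 656 features had enough counts to be tested among 16346 features in all, in 1 fit over the 10 libraries. A feature is called when its adjusted p is below 0.05. With aspirin, 43 of 632 (6.80%) were called higher and 42 (6.65%) lower, against 9.49% higher and 8.27% lower of all features tested. The median change of the short features was 0.04, against -0.00 for all features (log2). With diclofenac, 19 (3.01%) were called higher and 14 (2.22%) lower, against 4.76% and 3.11% of all, with medians of 0.13 and -0.01. With indomethacin, 5 (0.791%) were called higher and 0 lower, against 0.752% and 0.0245% of all, with medians of 0.11 and -0.02. For indomethacin the lower count of 0 compares with 54 short features at an unadjusted p under 0.05 in either direction, and DESeq2 also called 0 lower.

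These shares were below or near those of all features, so the short features did not stand out by their number of calls. The libraries of the 2 groups compared did not overlap for any called feature, which the call itself makes likely with 2 libraries a group. How many of all features have groups that do not overlap was not worked out. Such counts further on therefore describe the features and are not evidence of a change. Features near the count minimum can reach it through the groups where they are high, which partly sets the direction of their changes. The comparisons with control share the same 2 control libraries. In this fit, diclofenac and aspirin had 16 higher calls in common (of 19 and 43) and 13 lower calls (of 14 and 42). Indomethacin shared none of its 5 with either, which changed with the fit, as given further on.

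The aspirin and diclofenac counts depended on single libraries and on the Y reads. For aspirin they were 14 higher and 8 lower with a term for Y reads, 4 and 8 without aspirin 1, 8 and 8 without control 1, and 15 and 30 without control 2. For diclofenac they were 7 and 7 with the Y term, 4 and 5 without control 1, 5 and 15 without control 2, and 12 and 6 without diclofenac 1. For indomethacin, 0 were called with either control left out and 2 without indomethacin 1.

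**Figure D3:**
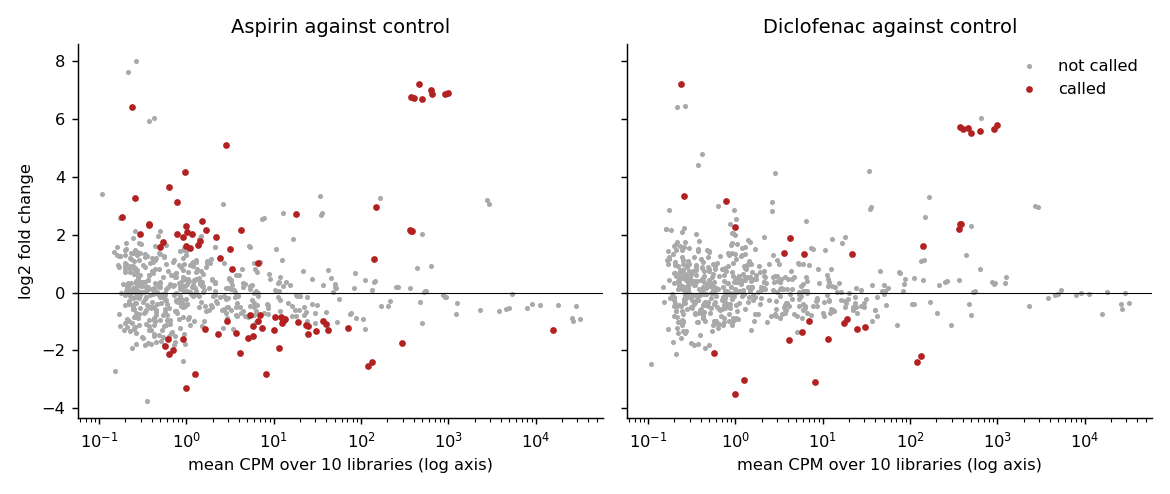
Log2 fold change against control (vertical axes) by mean level over the 10 libraries (horizontal axes, CPM on a log axis) for the 632 short features tested, with aspirin on the left and diclofenac on the right; red points are called and grey points are not. The cluster of red points at the upper right of each panel, between about 6 and 7 for aspirin, is the 49 nt features.

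The direction of the calls differed by length class. With aspirin, 12 of 77 features of at most 80 nt were called higher and 1 lower. At 81 to 120 nt these counts were 8 and 5 of 137, and at over 120 and up to 200 nt they were 19 and 9 of 216. Over 200 nt they were 4 and 27 of 202. With diclofenac, 8 were higher and 1 lower at most 80 nt, 2 and 0 at 81 to 120 nt, 6 and 1 at over 120 and up to 200 nt, and 3 and 12 over 200 nt. Among the features over 200 nt, aspirin calls were 1 higher and 18 lower for the 140 tested with a length that is a multiple of 3, and 3 higher and 9 lower for the other 62. Of the higher calls at most 80 nt, 8 of 12 with aspirin were features of 49 nt, described further on. With diclofenac it was 7 of 8. Of all features tested, 9.49% were called higher and 8.27% lower with aspirin, and 4.76% and 3.11% with diclofenac. With aspirin these shares were 15.6% and 1.3% at most 80 nt, and 1.98% and 13.4% over 200 nt. With diclofenac they were 10.4% and 1.3%, and 1.49% and 5.94%. The difference between classes was not tested.

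The 8 largest rises called with aspirin were of features of 49 nt. All 8 single-exon features of that length in the table passed the count minimum. They lie on chromosome 1 (chr1:11974142-11974190 and chr1:11975022-11975070), chromosome 5 (chr5:91140930-91140978), chromosome 6 (chr6:30635071-30635119) and chromosome 14 (chr14:46329996-46330044, chr14:46525123-46525171, chr14:46652302-46652350 and chr14:46654573-46654621). Each is shorter than the 100 bp of a read. The feature at chr14:46652302 had 25.4 and 25.0 CPM in control, 241 and 814 CPM with indomethacin, 16.99 and 18.26 CPM with honokiol plus indomethacin, 3766 and 2213 CPM with aspirin and 2616 and 180 CPM with diclofenac. Every indomethacin, aspirin and diclofenac library was above both controls, and diclofenac 2 was far below diclofenac 1.

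The other 7 followed the same order of groups. ENSRNOG00000052998 on chromosome 5 (chr5:91140930) had 11.6 and 10.2 CPM in control, 113 and 163 CPM with indomethacin, 5.79 and 6.29 CPM with honokiol plus indomethacin, 2177 and 1024 CPM with aspirin, and 1035 and 86.6 CPM with diclofenac. Over all 8, control libraries ran from 10.1 to 25.4 CPM, aspirin 1 from 1248 to 3766, aspirin 2 from 1024 to 2231, diclofenac 1 from 1035 to 2616 and diclofenac 2 from 82.7 to 180. Summed, the 8 took 0.012% of the counts of each control, 0.106% and 0.318% with indomethacin, 0.00907% and 0.00809% with honokiol plus indomethacin, 2.12% and 1.32% with aspirin and 1.27% and 0.0915% with diclofenac. Both honokiol plus indomethacin libraries were below both controls for all 8.

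With aspirin, log2 fold changes of the 49 nt features were 6.69 to 7.20 and all 8 were called (edgeR, adjusted p from 0.015 to 0.027). With diclofenac they were 5.53 to 6.01 and 7 were called (adjusted p from 0.029 to 0.051). With indomethacin they were 3.04 to 4.39 and edgeR called 0 (adjusted p from 0.19 to 0.48), while all 8 had an unadjusted p under 0.05 and DESeq2 called 7. EdgeR called all 8 with only the 2 groups compared, with no low-count filter, or with either diclofenac library left out. Between honokiol plus indomethacin and indomethacin they were -4.95 to -3.99, and edgeR called 0 (adjusted p from 0.20 to 0.41), with 8 at an unadjusted p under 0.05 and 8 called by DESeq2. The median for aspirin was 6.87 with all libraries and 6.52 without aspirin 1. None of the 8 was called without aspirin 1, with either of the 2 controls left out, or with the Y term (median 6.62). The diclofenac median of 5.67 was 2.93 without diclofenac 1. No diclofenac call was left when any 1 of the control, aspirin or honokiol plus indomethacin libraries was left out, with the Y term, or with only the 2 groups compared.

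Features of 57 nt were even higher in some libraries, with larger differences between the libraries of a group. Chr6:30641117-30641173, the most abundant of at most 80 nt, had 366 and 1010 CPM in control and 1134 and 2611 CPM with indomethacin. It had 272 and 1906 CPM with honokiol plus indomethacin, 7830 and 3733 CPM with aspirin, and 2624 and 8075 CPM with diclofenac. Both libraries of each group given 1 of the 3 drugs alone were above both controls, and the honokiol plus indomethacin pair overlapped them. The aspirin difference of 3.07 ± 1.07 (log2 ± SE) did not pass the threshold (edgeR, adjusted p = 0.085). Its neighbour in level, chr6:31049116-31049172, had 306 and 911 CPM in control and 7789 and 3386 CPM with aspirin (3.20 ± 1.16, adjusted p = 0.094). All 6 features of this length in the set had both aspirin and both diclofenac libraries above both controls, with log2 changes of 2.01 to 3.25 and 2.30 to 3.29. EdgeR called 0 in either comparison, with 5 at an unadjusted p under 0.05 in each, while DESeq2 called 5 with aspirin and 4 with diclofenac. With only the 2 groups compared, edgeR called all 6 with aspirin and 0 with diclofenac.

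Features of 153 nt were added because theirs was the commonest other length near the 49 nt features. Their nearness was therefore partly set by this choice. The 1 on chromosome 7 lies in a place with 0 features of 49 or 57 nt. Chr5:91134985-91135137 had 224 and 80.9 CPM in control, 249 and 194 CPM with indomethacin, 116 and 55.3 CPM with honokiol plus indomethacin, 747 and 574 CPM with aspirin, and 1064 and 508 CPM with diclofenac. Aspirin and diclofenac libraries were above the controls, and the indomethacin libraries overlapped them. It rose by 2.12 ± 0.54 with aspirin and by 2.37 ± 0.55 with diclofenac (log2 ± SE, edgeR, adjusted p = 0.028 and 0.030). Its counts agreed within 10% in every library with those of chr1:11970092-11970244, so the pair may share reads. Of the 8 features of 153 nt, 4 were called higher with aspirin and 3 with diclofenac. The aspirin calls numbered 0 without aspirin 1, 1 without control 2 and 2 without aspirin 2. The diclofenac calls numbered 0 without control 2, without diclofenac 1 or with only the 2 groups compared, and 1 with either aspirin library left out. With the Y term they were 5 and 4. Only 8 of 34 features of this length reached the count minimum.

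The 22 features of 49, 57 and 153 nt fall into 5 places, which for the 153 nt features follows in part from how that length was chosen. These are 4 features on chromosome 1 from 11906441 to 11975070, 9 on chromosome 14 from 46329996 to 46687136, 3 on chromosome 5 from 91132967 to 91140978, 5 on chromosome 6 from 30630902 to 31049172, and 1 on chromosome 7 at 22453865. They gave 12 of the 43 higher calls with aspirin and 10 of the 19 with diclofenac. The other 610 features tested gave 31 higher and 42 lower calls with aspirin, and 9 higher and 14 lower with diclofenac. On chromosome 14, the 49 nt feature at 46525123 lies on the opposite strand within a 7-exon feature from 46523594 to 46529375, which rose by 4.93 ± 1.02 with aspirin (log2 ± SE, edgeR, adjusted p = 0.019). Whether the counts of the 2 strands come from the same transcripts was not tested.

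**Figure D4:**
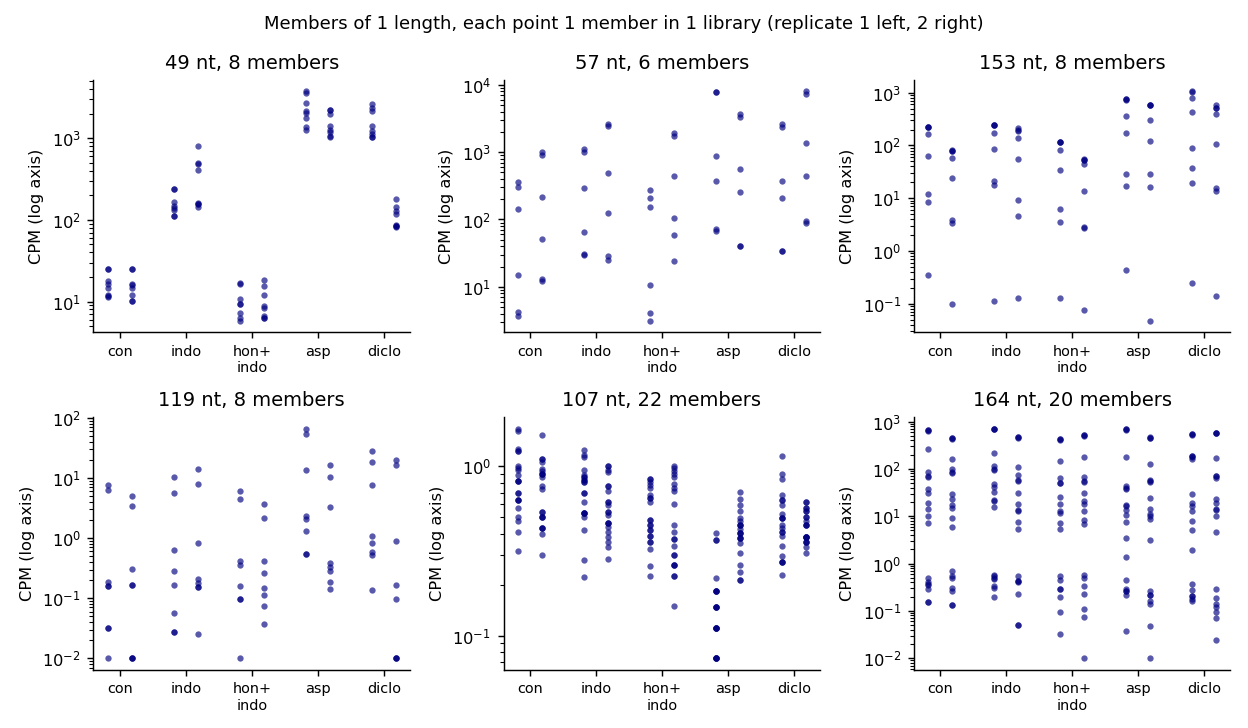
Level of each short feature of 49, 57, 153, 119, 107 and 164 nt (CPM on a log axis; values of 0 are drawn at 0.01) in each library, with control (con), indomethacin (indo), honokiol plus indomethacin (hon+indo), aspirin (asp) and diclofenac (diclo) along the horizontal axis. The 49 nt points lie between 10.1 and 25.4 CPM in the controls and above 1000 CPM in both aspirin libraries and diclofenac 1, and the 107 nt points are lowest in aspirin 1.

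Features of 119 nt were higher with aspirin at much lower levels. All 8 had both aspirin libraries above both controls, with a median log2 change of 3.92 (from 1.11 to 7.63, SE from 0.65 to 2.75), and 2 were called. Of 61 features of this length, only these 8 reached the count minimum, so their shared direction is partly set by that rule. One of them, chr18:27673077-27673195, had 0 counts in both controls, 36 and 6 with aspirin, and 26 and 0 with diclofenac. With diclofenac the median was 3.02 and edgeR called 0, with 2 at an unadjusted p under 0.05 and 2 called by DESeq2; without diclofenac 1 that median was 0.03. Chr19:56338736-56338854 had 7.61 and 5.11 CPM in control and 66.8 and 16.2 CPM with aspirin, a rise of 2.70 ± 0.65 (log2 ± SE, edgeR, adjusted p = 0.033). Chr12:42025661-42025779 had 0.189 and 0.301 CPM in control and 13.8 and 3.31 CPM with aspirin, a rise of 5.10 ± 1.28 (adjusted p = 0.040). Aspirin 1 was about 4 times aspirin 2 in both, and neither call was left without aspirin 1, without either control, without any 1 of the indomethacin or honokiol plus indomethacin libraries, or with the Y term. Another feature of 119 nt, chrY:83879-83997, had 6.28 and 3.37 CPM in control and 54.3 and 10.5 CPM with aspirin. Aspirin libraries had 0 counts on 7 other features of chromosome Y, so the reads placed on this one may come from a copy elsewhere.

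Of 20 features of 134 nt, on 12 chromosomes, 6 were called higher with aspirin and none lower, with a median change of 0.71 over the 20 (log2). The intronic features chr1:213992497-213992630 and chr1:214429403-214429536 had 0.663 and 0.267, and 0.537 and 0.267 CPM in control, against 2.43 and 1.61, and 2.50 and 1.54 CPM with aspirin. Their changes were 2.09 ± 0.46 and 2.30 ± 0.45 (log2 ± SE, edgeR, adjusted p = 0.016 and 0.011), while the 4-exon features that hold them gave -0.31 ± 0.21 and -0.32 ± 0.21 (adjusted p = 0.30 and 0.28). Of this length, 0 were called without aspirin 1, where the median was 0.32, and 3 with the Y term, without control 1 or without honokiol plus indomethacin 1.

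Features of 107 nt went the other way at low levels. All 22 had log2 fold changes below 0 with aspirin (median -1.41, from -1.98 to -0.20), and 21 had both aspirin libraries below both controls. The share of all features with both aspirin libraries below both controls was not worked out. Their summed level was 18.9 and 16.4 CPM in control, 16.0 and 13.2 CPM with indomethacin, 11.6 and 11.5 CPM with honokiol plus indomethacin, 3.60 and 9.16 CPM with aspirin and 11.2 and 9.93 CPM with diclofenac. No feature of this length passed 1.67 CPM in any library. The test was passed by 3, of which chr7:80490967-80491073 changed most, by -1.98 ± 0.57 (log2 ± SE, edgeR, adjusted p = 0.037). Without aspirin 1 the median was -0.94 with 0 called, and without aspirin 2 it was -2.28 with 9 called. With the Y term (median -1.30), with the replicate block, or with any 1 of the control or indomethacin libraries left out, 0 were called. Features of this length were numerous in the table (392), and 22 reached the count minimum. The lowest levels among the 22 were 0.316 and 0.301 CPM in control, against 0.0736 and 0.213 CPM with aspirin. Features this near the minimum can reach it through the controls, so the shared direction may be partly set by that rule.

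All 5 features of 213 nt in the set fell with aspirin, with log2 changes of -0.99 to -0.79 (edgeR, adjusted p from 0.024 to 0.046). With only the 2 groups compared, edgeR called 0 of them. The fall was not limited to aspirin. Changes against control were -0.66 to -0.39 with indomethacin, -0.72 to -0.47 with diclofenac and -0.68 to -0.56 with honokiol plus indomethacin, with 0 called. The summed level was 86.3 CPM in control 1 and 56.0 CPM in control 2. The one at chr16:11214736-11214948 had 21.9 and 14.7 CPM in control and 8.46 and 10.6 CPM with aspirin. Its counts agreed within 10% in every library with those of 2 other 213 nt features and a 303 nt feature, so these are not independent. None of the 5 was called without control 1, without aspirin 1 or with the Y term. The 20 features of 164 nt and the 14 of 191 nt were among the more abundant classes, with summed control levels of 2566 and 1853 CPM, and 2787 and 2582 CPM. They gave 1 lower call with aspirin, among the 164 nt features, and no other call.

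The clearest falls were of single features of 261 to 308 nt, with aspirin and diclofenac side by side. ENSRNOG00000052180 (chr3:75024206-75024479, 274 nt) had 16.1 and 12.99 CPM in control, 13.7 and 10.04 CPM with indomethacin, 9.48 and 11.6 CPM with honokiol plus indomethacin, 2.39 and 1.80 CPM with aspirin, and 1.72 and 1.71 CPM with diclofenac. The aspirin and diclofenac libraries were below all 6 others. It fell by 2.80 ± 0.25 with aspirin and by 3.08 ± 0.25 with diclofenac on the log2 scale (edgeR, adjusted p = 0.00084 and 0.00038).

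A 270 nt pair on chromosome 12 moved in parallel. Chr12:7353632-7353901 had 218 and 194 CPM in control, 180 and 226 CPM with indomethacin, 97.2 and 246 CPM with honokiol plus indomethacin, 39.9 and 39.2 CPM with aspirin, and 43.1 and 46.9 CPM with diclofenac. Chr12:7115820-7116089 had 200 and 178 CPM in control, 33.9 and 31.4 CPM with aspirin and 34.6 and 38.0 CPM with diclofenac. The first fell by 2.38 ± 0.37 and 2.20 ± 0.36 with aspirin and diclofenac, and the second by 2.54 ± 0.38 and 2.38 ± 0.38 (log2 ± SE, edgeR, adjusted p from 0.0048 to 0.0064). Each of these 3 features holds a shorter same-strand feature, of 85 nt in the first case and 64 nt in the pair, which had 0 counts in all libraries.

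At lower levels, chr9:78979883-78980166 (284 nt) had 2.56 and 1.97 CPM in control, 0.221 and 0.237 CPM with aspirin, and 0.227 and 0.167 CPM with diclofenac. Chr5:119052434-119052716 (283 nt) had 3.03 and 2.40 CPM in control, 0.331 and 0.426 CPM with aspirin, and 0.454 and 0.214 CPM with diclofenac. The first fell by 3.28 ± 0.53 with aspirin and the second by 2.81 ± 0.45 (log2 ± SE, edgeR, adjusted p = 0.0056 for both). These 5 features were called in both comparisons under all 18 alternative settings, including the Y term and each library left out.

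A pair of intronic features fell less. Chr10:89187167-89187474 (308 nt) had 9.35 and 5.34 CPM in control, 1.40 and 2.01 CPM with aspirin, and 2.25 and 2.50 CPM with diclofenac. Chr5:74897005-74897291 (287 nt) had 23.1 and 18.4 CPM in control, 6.69 and 4.33 CPM with aspirin, and 7.44 and 6.12 CPM with diclofenac. The aspirin calls of both held under all 18 settings, and the diclofenac calls under 15 and 16. Chr2:211337271-211337531 (261 nt) had 32.5 and 21.5 CPM in control, 12.2 and 14.3 CPM with aspirin, and 13.3 and 15.3 CPM with diclofenac. It fell by 1.02 ± 0.23 and 0.91 ± 0.23 (log2 ± SE, edgeR, adjusted p = 0.018 and 0.037). Those calls held under 15 and 8 of the 18 settings, and neither held with the Y term.

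Another 3 features of lower level rose with both drugs. Chr6:138685363-138685656 (294 nt) had 0.189 and 0.1002 CPM in control, 0.948 and 0.719 CPM with indomethacin, 1.03 and 1.54 CPM with aspirin, and 0.522 and 2.14 CPM with diclofenac. It rose by 3.12 ± 0.71 with aspirin and 3.16 ± 0.71 with diclofenac (log2 ± SE, edgeR, adjusted p = 0.018 and 0.024). Chr8:44992796-44992879 (84 nt), in an intron, had 0.347 and 0.401 CPM in control, 0.662 and 1.58 CPM with aspirin, and 1.84 and 1.74 CPM with diclofenac. Its diclofenac rise was 2.25 ± 0.50 (adjusted p = 0.022), and its aspirin call (1.61 ± 0.50, adjusted p = 0.048) held under 6 of 18 settings. Chr6:128084033-128084163 (131 nt) had 0 counts in both controls, 20 and 5 counts with indomethacin, 7 and 14 with aspirin and 16 and 29 with diclofenac. With 0 counts in control it reached the count minimum through other libraries, so its rise is not independent of that rule. Taking 3 counts per control library as the limit that a count of 0 allows, its mean CPM was 3.02-fold that limit with aspirin and 5.40-fold with diclofenac. The counting error of the treated libraries was not included. With indomethacin its mean CPM was 3.52-fold that limit, so the higher level was not limited to aspirin and diclofenac. EdgeR called 0 features of 131 nt with indomethacin, and DESeq2 called 1.

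In the main edgeR fit, none of the 5 features called with indomethacin was called with aspirin or diclofenac. All lay outside other features, were over 200 nt and had lengths that are multiples of 3. This separation depended on the fit. DESeq2 called 20 short features with indomethacin, 7 of them of 49 nt, and edgeR with only the groups compared called 16, 8 of them of 49 nt. ENSRNOG00000050000 (chr11:86092468-86092779, 312 nt) had 3.79 and 2.40 CPM in control, 19.2 and 11.5 CPM with indomethacin, 4.92 and 2.88 CPM with honokiol plus indomethacin, 5.33 and 7.38 CPM with aspirin, and 4.31 and 7.66 CPM with diclofenac. The indomethacin libraries were above all 8 others. It rose by 2.31 ± 0.39 (log2 ± SE, edgeR, adjusted p = 0.028), and the call held under 13 of 18 settings.

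The other 4 lie below the level set for naming and were chosen after their values were seen. Chr6:142059736-142060032 (297 nt) had 0.189 and 0.234 CPM in control, 3.26 and 6.06 CPM with indomethacin, and 0.777 and 0.299 CPM with honokiol plus indomethacin. Chr3:18970574-18970861 (288 nt) had 0.442 and 0.3005 CPM in control, 5.35 and 2.90 CPM with indomethacin, and 0.809 and 0.486 CPM with honokiol plus indomethacin. They rose by 4.44 ± 0.60 and 3.46 ± 0.48 with indomethacin (log2 ± SE, edgeR, adjusted p = 0.0084 and 0.0093). Chr4:93888502-93888792 and chr4:102876038-102876328 (both 291 nt) rose by 3.15 ± 0.59 and 3.02 ± 0.61 (adjusted p = 0.034 and 0.047).

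**Figure D5:**
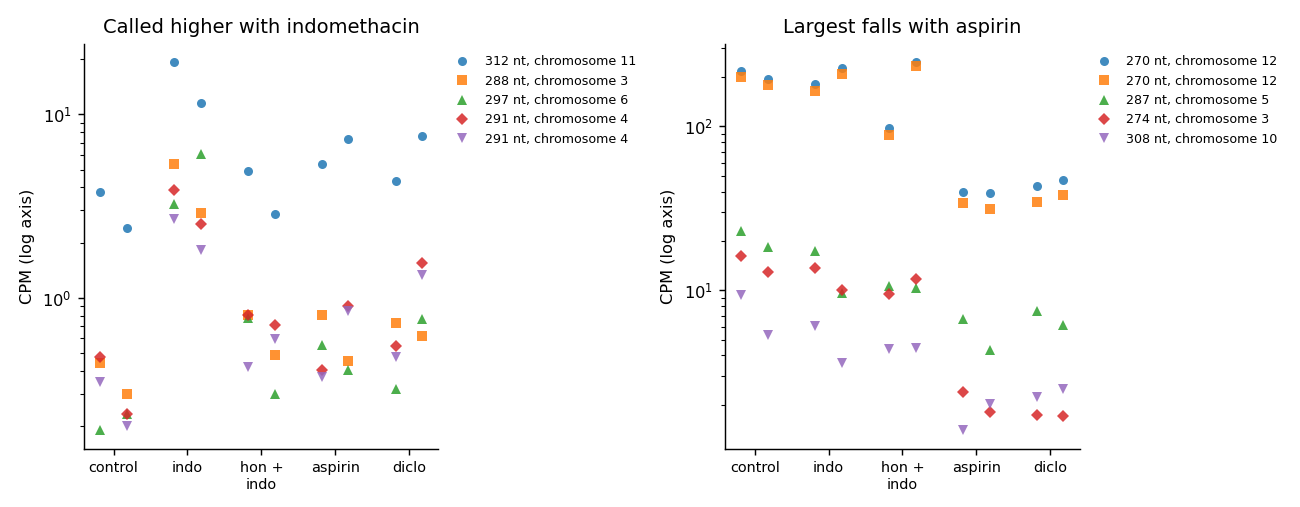
Level in each library (CPM on a log axis) of the 5 features called higher with indomethacin (left) and 5 called lower with aspirin (right). Those on the right are the lower calls with aspirin that were named by size (274 nt, the 270 nt pair, 308 nt and 287 nt). The 284 nt feature on chromosome 9 and the 283 nt feature on chromosome 5 fell more with aspirin. They were named by another part of the rule and are not drawn. Replicate 1 is left and replicate 2 right in each group. Labels are indo for indomethacin, hon + indo for honokiol plus indomethacin and diclo for diclofenac. On the left both indomethacin points lie above every other library for each feature, and on the right both aspirin and both diclofenac points lie below both controls.

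Features around these calls were also higher with indomethacin at low levels. Runs of short features with gaps of at most 500 kb and at least 6 members were listed after the values were seen. One run of 12 on chromosome 3, from 18315320 to 20695952, has lengths of 285 to 327 nt, all multiples of 3. Its summed level was 5.998 and 17.9 CPM in control, 64.2 and 20.7 CPM with indomethacin, 14.3 and 8.75 CPM with honokiol plus indomethacin, 15.7 and 101 CPM with aspirin and 43.1 and 158 CPM with diclofenac. All 12 had log2 changes above 0 with indomethacin (median 1.91), 8 had both indomethacin libraries above both controls, and 1 was called. A run of 10 on chromosome 4, from 102262007 to 103761881, also had only multiples of 3, with a median change of 2.07 with indomethacin and 1 called. Its summed level was 4.89 and 3.81 CPM in control, 25.3 and 12.4 CPM with indomethacin, 10.1 and 2.96 CPM with honokiol plus indomethacin, 5.99 and 13.4 CPM with aspirin and 4.54 and 21.2 CPM with diclofenac. On both runs aspirin 2 was above aspirin 1 and diclofenac 2 above diclofenac 1.

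Honokiol before indomethacin gave no calls against control. By edgeR 0 of 632 short features were called higher and 0 lower, as were 0.0% and 0.0% of all features tested. At an unadjusted p under 0.05 there were 45 short features (7.12%), against 5.0% of all, and DESeq2 called 0 short features and 0.0918% of all. The median log2 change of the short features was -0.27, against -0.01 for all, with 429 of 632 below 0. Against indomethacin alone, 0 were called higher and 2 lower (0.316%), against 0.0428% and 0.3% of all features tested. The median was -0.37, against -0.02 for all, with 476 of 632 below 0. This comparison shares its indomethacin libraries with that of indomethacin against control.

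The 2 lower calls were the 297 nt feature on chromosome 6 and the 288 nt feature on chromosome 3, both called higher with indomethacin against control. Between honokiol plus indomethacin and indomethacin they changed by -3.09 ± 0.54 and -2.65 ± 0.45 (log2 ± SE, edgeR, adjusted p = 0.039 and 0.036). Neither call was left without indomethacin 2 or without either honokiol plus indomethacin library. With the Y term the 288 nt feature was called (-2.97 ± 0.44, adjusted p = 0.038) and the 297 nt feature was not (-2.66 ± 0.57, adjusted p = 0.15). The 297 nt call was also lost with either control left out, and the 288 nt call without indomethacin 1. The 312 nt feature on chromosome 11 changed by -1.97 ± 0.39 and was not called (adjusted p = 0.076). The honokiol plus indomethacin libraries also carried a different time label from the indomethacin libraries, which cannot be told apart from the treatment.

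Intronic features could be set against the features that hold them. For 159 intronic features with a tested host on the same strand, Pearson's r of the log2 changes across features was 0.05 for aspirin, 0.06 for diclofenac and 0.14 for indomethacin. For 66 with a host on the opposite strand it was 0.61, 0.61 and 0.63, and these values rested on 4 of the features of 49, 57 and 153 nt. Without those 4, left out after the values were seen, it was 0.00, 0.07 and 0.28. The honokiol comparisons did not lose theirs in this way. For honokiol plus indomethacin against control the opposite-strand r was 0.42, and 0.48 without those 4. Against indomethacin it was 0.60, and 0.56 without them. Of the 62 features left, 28 and 32 had the sign of their host in these 2 comparisons. Feature and host had changes of the same sign for 35 of the 66 with aspirin, 42 with diclofenac and 44 with indomethacin, and on the same strand for 84, 85 and 87 of 159. These values describe features that share the same libraries and are not independent. Of 18 intronic features called with aspirin in a same-strand host, 1 had a host that was called, in the same direction. Of 10 with an opposite-strand host, 3 hosts were called and 2 of them in the same direction.

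Some hosts held several short features whose levels differed. A 15-exon feature on chromosome 8, from 13861459 to 13871354, held 7 in its introns, with mean levels from 0.198 to 1.65 CPM, an 8.33-fold range, while the host's mean was 11.8 CPM. With aspirin the 7 had log2 changes from -1.27 to 0.93, 1 of them was called, and the host changed by -0.50 ± 0.26 (edgeR, adjusted p = 0.19). A 13-exon feature on chromosome 11, from 81373048 to 81379871, held 5 with mean levels from 0.350 to 36.8 CPM, a 105-fold range, and a host mean of 119.3 CPM. Its 5 had changes of -0.32 to 0.69 with aspirin, none was called, and the host changed by -0.66 ± 0.29 (adjusted p = 0.13).

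A run of 8 short features of 61 to 85 nt lies within 3 kb on chromosome 13, from 78852741 to 78855688. Its summed level was 15.5 and 12.99 CPM in control, 20.9 and 16.8 CPM with indomethacin, 11.04 and 9.80 CPM with honokiol plus indomethacin, 8.16 and 16.4 CPM with aspirin, and 21.8 and 19.7 CPM with diclofenac. All 8 were lower in both honokiol plus indomethacin libraries than in both indomethacin libraries, with a median log2 change of -0.88, and none was called in any comparison. A run of 9 on chromosome 1, from 224921637 to 225085107, had a median change of -0.68 in the same comparison, with 5 of 9 not overlapping and none called. Other runs differed, with 7 of 9 lower and not overlapping on chromosome 14 from 46329996 and 0 of 6 on chromosome 2 from 198524137. Over all short features tested the median was -0.37, with 476 of 632 below 0. The share of all features without overlap was not worked out.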

How the data were processed

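Counts per feature were deposited by the authors as 1 table per library, with identifiers, positions and lengths per the file headers. Total RNA was depleted of ribosomal RNA and sequenced with a stranded kit as paired reads of 100 bp, per the labels' protocols. The submitters' processing notes name cutadapt 1.16, HISAT2 2.1.0, featureCounts and DESeq2. Neither the genome build nor the strand setting of the counting is stated there. The members and lists were chosen with earlier results of these data known.

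Counts were tested as deposited in 1 fit over 10 libraries and 5 groups, with edgeR 4.0.16 (R 4.3.3; TMM factors, filterByExpr with a count minimum of 10, robust quasi-likelihood F test, 5 residual degrees of freedom), adjusted over all 16346 features tested by the Benjamini-Hochberg method. The fit was tested on simulated data. Levels are TMM-scaled CPM computed from the counts, and library totals (23892226 to 44977459) set their precision. Intervals cover counting error only, and the limit from a count of 0 covers that of the control libraries only. Each p-value measures the spread between libraries. The labels name no separate animals. The control and indomethacin pairs differ in chromosome Y reads, so neither pair is a repeat of 1 animal. In the other groups the spread may be technical.

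Features were named by a rule: the 12 most abundant per kilobase, up to 5 higher and 5 lower calls a comparison by size (average log2 CPM from 1 upwards), the most abundant in each class, and up to 8 called in most comparisons with control. The rule named 32. Planned lists of RNA classes, partner proteins and cell type markers could not be applied, because 0 identifiers matched the reference names; length and position classes took their place, and no sequence is printed. Alternatives were other scaling, filters, DESeq2 1.42.0, a replicate block, a Y term, only the groups compared, and each library left out. Calls of the main fit were also counted for features that meet no other feature. Leaving out the features of 49, 57 and 153 nt was added after seeing the data.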

Additional observations from a re-analysis of the deposited data

How the results depend on the processing

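Each count of calls below is out of the short features tested (higher and lower together). For features that meet no other feature it counts calls of the main fit among the 358 of them tested, without a new fit. With aspirin 6.70% of these were called higher and 6.98% lower, near the 6.80% and 6.65% of all short features tested. With diclofenac the shares were 3.35% and 1.96%, near 3.01% and 2.22%. For aspirin (85 called) the count was 159 with no low-count filter, 22 with a term for Y reads, 49 for features that meet no other feature, and 12 to 115 with each library left out. For diclofenac (33) it was 106 with no filter, 14 with the Y term, 58 with DESeq2, 19 for features that meet no other feature, and 9 to 37 with a library left out. For indomethacin (5) it was 54 with no filter, 16 with only the groups compared, 20 with DESeq2, and 0 to 15 with a library left out. For honokiol plus indomethacin against control (0) it was 11 with no filter and 0 with each library left out. For honokiol plus indomethacin against indomethacin (2) it was 58 with no filter, 1 with the stricter filter, 13 with only the groups compared, 21 with DESeq2, and 0 to 12 with a library left out. The cause was not tested. Leaving out a library leaves 1 in its group, which is then assumed to vary like the others.

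The mean share of counts on the short features (22.3%) was 31.2% of nuclear counts, 13.6% without the 3 most abundant, 2.04% for at most 200 nt and 4.22% for features that meet no other feature. Same-numbered libraries share only a number: deviations of replicate 1 correlated between -0.263 and 0.298 across pairs of groups. With a replicate block the counts were 75 for aspirin, 29 for diclofenac, 4 for indomethacin, 0 for honokiol plus indomethacin against control and 1 against indomethacin. Scaling by longer nuclear features moved a library by at most 0.032 (log2). Levels under 1 CPM, where 349 features lie, rest on few counts.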
